A study of Mus musculus with 3 samples.

Results

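The 4 early B-cell factor genes Ebf1, Ebf2, Ebf3 and Ebf4, together with Mki67 and Mgmt, the neighbours of Ebf3 on chromosome 7, were examined for intervals listed after chromatin immunoprecipitation of LMX1B. Each of the 6 genes was given a domain, which ran from its RefSeq gene body as far as the bodies of the flanking protein-coding genes but no more than 1 Mb to either side, and an interval was assigned by its midpoint. The 6 domains held 13 of the 1287 intervals of the first ChIP and 30 of the 4501 intervals of the validation ChIP, each counted once. Both ChIPs used chromatin of C57BL/6 limb buds at embryonic day 12.5. Forelimbs and hindlimbs were pooled, 48 buds in each of 2 runs, and the polyclonal antibody was the same, BMO8. The track name of the first ChIP calls the buds WT, and no genotype is given for the validation ChIP. The third sample, an input of pooled wild-type and mutant chromatin, had no interval list among the files used here. Each ChIP is a single sample, so there was no spread between replicates and no test, and sequencing depth is unknown. The genes were chosen by the intervals listed near some of them, in both ChIPs, so all counts are descriptions. Whole buds mix dorsal and ventral mesenchyme, ectoderm and other cells, and interval lists neither tell in which of these an interval arose nor measure the transcripts that mark a tissue.

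LMX1B is a LIM homeodomain transcription factor that gives limb mesenchyme its dorsal character, and homeodomains bind short AT-rich sites with an ATTA core. The early B-cell factors bind an inverted repeat in DNA as dimers. Ebf1 is required for B-cell commitment, Ebf2 acts in brown fat and in neurons, and several members of the family are expressed in mesenchyme and connective tissue, including that of the limb. Mki67 encodes the proliferation marker Ki-67, a protein of mitotic chromosome surfaces, and Mgmt encodes a repair enzyme that removes alkyl groups from guanine.

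Across the 6 domains, the RefSeq promoter table (GRCm38.p6) held 28 windows of 300 bases, from 250 before to 50 after a listed start. An interval of either list overlapped 1 of them, that of the long non-coding RNA gene Gm29872, which lies in the gap between Mki67 and Mgmt. Thus 1 of 13 first-ChIP and 1 of 30 validation intervals overlapped a window, against 16.0% and 8.51% of the whole lists. Of the 6 genes, 5 had windows in the table, 7 in all, and none was overlapped; Ebf2 had no entry. The 2 sequences shown are the overlapped window, with the 113 bases inside the first-ChIP interval in capitals, and the window of Ebf3, which intervals flanked on both sides, with its only TGACAG match (either strand) in capitals. Both are on the minus strand and are written 5′ to 3′.
Gm29872 (chr7:136390366-136390665): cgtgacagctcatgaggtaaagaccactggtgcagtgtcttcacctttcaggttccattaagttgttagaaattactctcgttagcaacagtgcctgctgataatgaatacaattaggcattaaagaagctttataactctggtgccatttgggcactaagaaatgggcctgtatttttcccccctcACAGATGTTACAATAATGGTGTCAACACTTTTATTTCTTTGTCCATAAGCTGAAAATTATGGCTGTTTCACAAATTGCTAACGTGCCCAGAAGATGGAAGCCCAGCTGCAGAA
Ebf3 (chr7:137314396-137314695): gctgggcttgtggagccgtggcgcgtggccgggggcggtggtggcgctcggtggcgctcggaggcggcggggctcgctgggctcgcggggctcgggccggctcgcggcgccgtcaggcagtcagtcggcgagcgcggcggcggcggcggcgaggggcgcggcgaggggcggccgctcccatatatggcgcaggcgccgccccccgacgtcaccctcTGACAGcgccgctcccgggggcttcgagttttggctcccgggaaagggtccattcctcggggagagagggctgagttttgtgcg

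The Gm29872 window was AT-rich, with 41.3% G and C against a median of 52.7% over 32851 RefSeq windows. ATTA, searched on both strands, matched 7 times. Of these, 2 lay wholly inside the capitals and 6 wholly inside the overlapping validation interval, which covered 243 of the 300 bases, and 2.37% of all windows held at least 7 matches. It held no TAATTA, a palindrome that contains ATTA on each strand and was found in 5.29% of windows. The Ebf3 window was GC-rich (77.0%) and held no ATTA, which 58.0% of all windows did. TGACAG, a letter string found in 19.2% of windows, lay 34 bases before the listed Ebf3 start, counted to its first letter. It also matched once in the Gm29872 window, outside both intervals, and once in a window of Mgmt. These matches describe letters in the windows only.

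The gap of 1.18 Mb between Mki67 and Mgmt held the largest group of intervals. It contained no protein-coding gene and 15 non-coding or pseudogene entries. The first ChIP had 6 intervals there and the validation ChIP 11, or 5.09 and 9.34 per Mb. Over the genome the lists had 0.501 and 1.75 per Mb. All 6 first-ChIP intervals overlapped a validation interval by at least 1 bp (here called shared), and 5 of the 11 validation intervals were shared. Over the whole lists, 54.9% of first-ChIP and 15.6% of validation intervals were shared. Because these domains were picked with such counts known, nothing is read from the difference.

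The shared sites of the gap were spread over 760 kb. The one closest to Mki67 (first ChIP 135848196 to 135848508, score 18) lay 132 kb from the gene and overlapped a validation interval of score 9. The score is the authors' whole number at the summit of an interval; its unit is not stated, so it ranks intervals within 1 list. The next site, at 136056525 to 136057044 inside the long non-coding RNA gene Gm51502, had scores of 18 and 11. In the same gene the validation ChIP had a further interval of score 16, at 136058473 to 136059252, 1.43 kb beyond the first-ChIP interval. It scored higher than its shared neighbour.

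The strongest site of the gap in each list lay at 136213650 to 136214409, 498 kb from Mki67 and 680 kb from Mgmt, outside any RefSeq gene. Its scores were 28 in the first ChIP, which 13.1% of that list reached, and 30 in the validation ChIP, which 1.53% reached. The validation interval there was 1929 bp wide (136212649 to 136214577), where the median of the list was 571 bp. The site at the Gm29872 start followed at 136390080 to 136390478, with scores of 17 and 14. The last site, 287 kb before Mgmt, consisted of a pair of first-ChIP intervals 426 bp apart, at 136606567 to 136606965 (score 18) and 136607392 to 136607930 (score 27). Both overlapped the same validation interval, at 136606733 to 136608216, with a score of 23 that 4.53% of the list reached. The 6 first-ChIP intervals of the gap therefore stand for 5 validation intervals.

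Validation intervals without a first-ChIP partner lay between the shared sites, so the outermost intervals of the gap were shared ones. Besides the second one in Gm51502, there were 5, with scores of 13, 9, 9, 15 and 12 in order along the chromosome from 136002315 to 136489408. One of the score 9 intervals, at 136341592 to 136342170, lay in the non-coding gene C230079O03Rik. No interval of either list lay in the Mki67 gene body (135689784 to 135716450) or between that gene and its other neighbour, Ptpre.

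**Figure D1:**
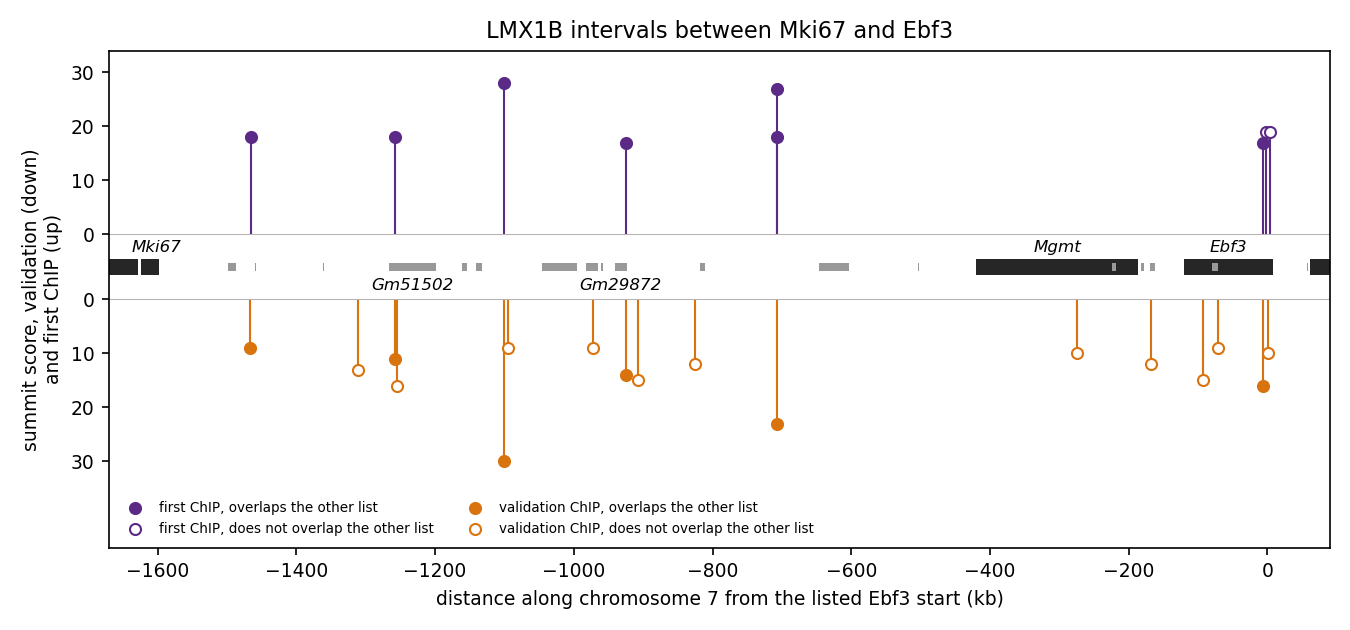
Summit scores of intervals in the Mki67, Mgmt and Ebf3 domains (y axis; first ChIP upward, validation ChIP downward, each on its own scale) against distance along chromosome 7 in kb from the listed Ebf3 start. Filled points overlap the other list, black bars are protein-coding genes and grey bars non-coding genes or pseudogenes; all 6 first-ChIP intervals in the Mki67 to Mgmt gap are filled, and 2 of the 3 at Ebf3 are open.

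Most of the gap belongs to the domains of both flanking genes. The Mki67 domain (1.03 Mb) held 6 first-ChIP intervals, all shared, and 11 validation intervals. At least 6 shared intervals were found for 0.785% of the 892 domains of at least 1 Mb, and for 0.0368% of all 21761 protein-coding genes, Mki67 included. The Mgmt domain (1.30 Mb) held 5 shared intervals, all of them counted for Mki67 too, and 1.68% of the domains of at least 1 Mb had as many. The interval at 135848196 fell 46.1 kb outside the Mgmt domain because of the 1 Mb limit. Within the Mgmt gene body (136894463 to 137128193) lay 1 interval, of the validation ChIP only, at 137039425 to 137040312 with a score of 10, 88.3 kb from the nearer gene end. A further validation interval of score 12 lay between Mgmt and Ebf3 (137146830 to 137147572), in the non-coding gene Gm30061, 19.0 kb from Mgmt and 46.5 kb from Ebf3.

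The Ebf3 domain of 247 kb held 3 first-ChIP and 5 validation intervals. All 3 of the first ChIP, but only 2 of the 5 of the validation ChIP, lay within 7 kb of the listed start. None covered it. The distance of 7 kb was used for Ebf3 only. The share of either whole list within 7 kb of a listed start was not counted. At least 3 first-ChIP intervals were found in 0.349% of 2864 domains within 1.5 times that length, and at least 5 validation intervals in 0.594%. Ebf3 (137193671 to 137322805) is transcribed towards lower coordinates from the start listed in the promoter table, 137314445; the gene body reaches 8.36 kb further upstream. Whether an interval was in an exon or an intron was not resolved, since the gene table used here gives no exons.

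Downstream of the start, a first-ChIP interval (137312973 to 137313273, score 19) was centred at 1.32 kb and had no validation interval closer than 2.50 kb. The shared site was centred at 6.10 kb, at 137308147 to 137308546 in the first ChIP (score 17) and 137307964 to 137308763 in the validation ChIP (score 16). Upstream, a validation interval (137315773 to 137316283, score 10) was centred at 1.58 kb and a first-ChIP interval (137317656 to 137317940, score 19) at 3.35 kb, with 1.37 kb between their edges. The lists thus alternated around the start and coincided only at the site 6.10 kb downstream. All 5 intervals lay within the gene body, which reaches beyond the listed start. The first-ChIP scores were low for that list: all 3 were under its median of 20, and 86.4% of its intervals had at least the score of the shared one. The validation score of the shared site, 16, was reached by 16.7% of its list. The remaining validation intervals in the gene body lay farther in, 70.7 and 92.8 kb downstream of the start. They were at 137243386 to 137244043 (score 9) and 137220884 to 137222326 (score 15, 1443 bp wide). The other validation interval of the domain was the one in Gm30061, outside the gene body.

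**Figure D2:**
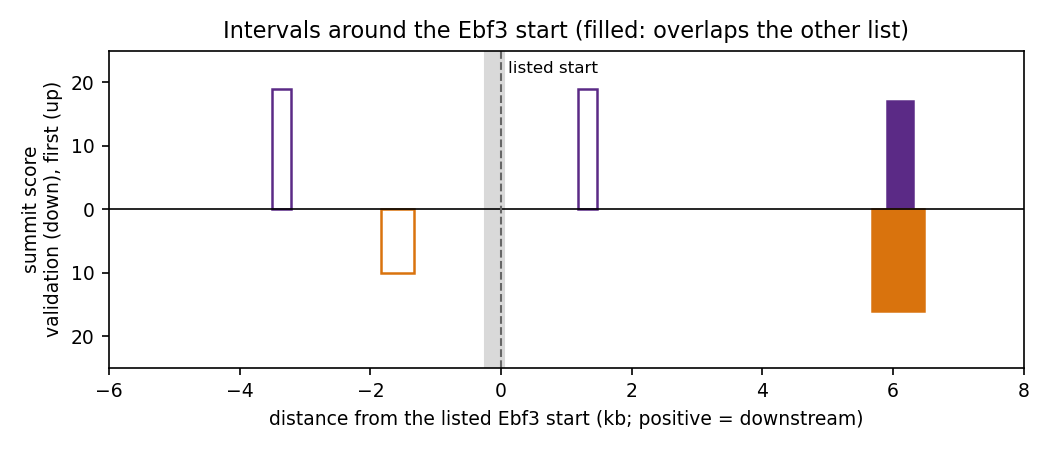
Intervals within 7 kb of the listed Ebf3 start, drawn at their widths against distance in kb (positive is downstream) with bar height the summit score (first ChIP upward, validation ChIP downward). Filled bars overlap the other list and the grey band is the promoter window; the only filled bars are at 6.10 kb, and the band is not touched.

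Ebf1 had a different layout: its shared sites lay beyond the gene, on the side of the next gene, Clint1. The Ebf1 domain of 1.29 Mb (gene body 44618100 to 45008096 on chromosome 11) held 4 first-ChIP and 11 validation intervals, of which 2 in each list were shared. At least 4 first-ChIP intervals were found in 3.81% of the domains of at least 1 Mb, at least 2 shared ones in 8.30% and at least 11 validation intervals in 3.70%. The nearer shared site lay 129 kb past the gene end (first ChIP 45136587 to 45136864, score 19; validation 45136549 to 45137426, score 22). A weaker validation interval (45138642 to 45139169, score 9) lay 1.22 kb away from it. The farther one lay 585 kb past the gene end, 259 kb from Clint1 (first ChIP 45593011 to 45593452, score 20; validation 45592985 to 45593813, score 21), again with a validation interval nearby (45598430 to 45599193, score 14).

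Both shared sites ranked high in the validation list, where 5.22% and 6.44% of intervals had at least their scores, and near the middle of the first list, where 64.6% and 55.3% did. The highest validation score of the domain, 23, belonged to an interval with no first-ChIP partner, at 45549890 to 45550968, 26.0 kb from the unshared first-ChIP interval at 45523540 to 45523885 (score 17). A second unshared validation interval with a high score, 17, lay at 45441125 to 45441901. Within the gene body of Ebf1 there were 3 intervals, none shared: at 44774334 to 44774613 in the first ChIP (score 18), and at 44749085 to 44749596 and 44958604 to 44958947 in the validation ChIP, both with a score of 9. Those of the first ChIP and of the validation ChIP in the left part of the gene were 24.7 kb apart. The interval nearest to a promoter window of Ebf1 lay 129 kb from it. The last validation interval of the domain (45838463 to 45839039, score 11) lay 13.2 kb from Clint1 in the non-coding gene F630206G17Rik, and the nearest outside it lay in Clint1, 48.4 kb past the border, with a score of 12.

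**Figure D3:**
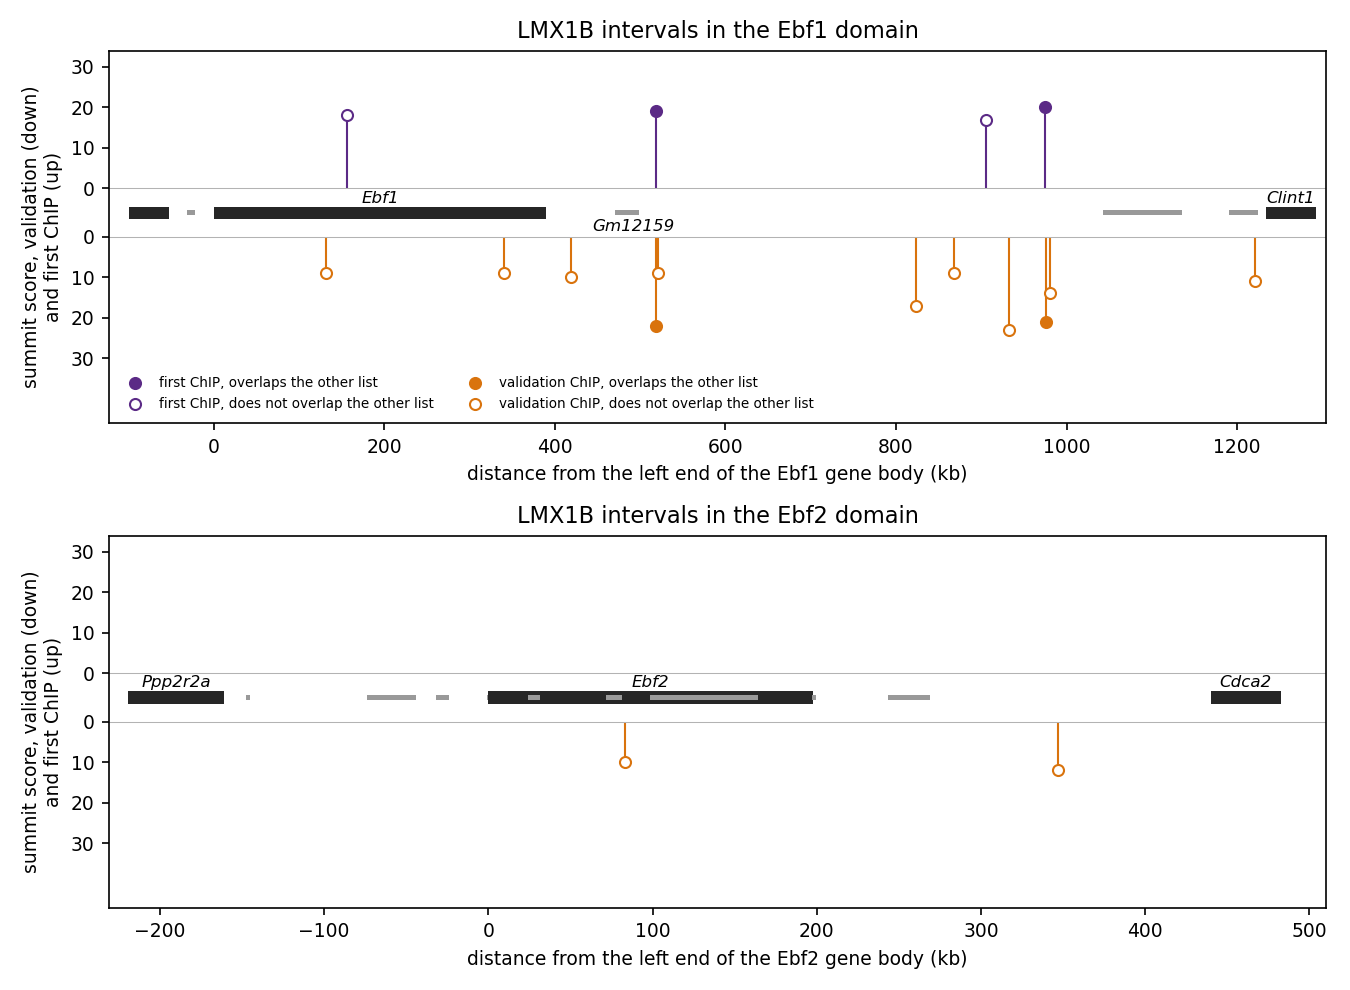
Summit scores of intervals in the Ebf1 and Ebf2 domains (y axis; first ChIP upward, validation ChIP downward) against distance in kb from the left end of each gene body, with genes as black and non-coding genes as grey bars. The filled, shared points of Ebf1 lie 129 and 585 kb past its end, and Ebf2 has 2 open validation points and none of the first ChIP.

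Ebf2 and Ebf4 had no shared interval. The Ebf2 domain of 601 kb on chromosome 14 held no first-ChIP interval and 2 validation intervals: one in the gene body (67316437 to 67316842, score 10) and one 149 kb from it (67579702 to 67580149, score 12). Of domains within 1.5 times this length, 20.4% had at least 1 first-ChIP interval and 46.8% at least 1 validation interval. The share with at least 2 validation intervals, as for Ebf2, was not counted. A first-ChIP interval of score 29 (67071962 to 67072532) had its midpoint 0.225 kb outside the domain, in the neighbouring gene Ppp2r2a. The Ebf4 domain of 106 kb on chromosome 2 (gene body 130295126 to 130370482) held no interval of either list, as did most domains of its length, of which 3.71% had a first-ChIP and 11.8% a validation interval. The nearest first-ChIP interval lay 105 kb outside, in Snrpb, and the nearest validation interval 1090 kb outside. An empty domain shows only that no interval was listed there.

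**Figure D4:**
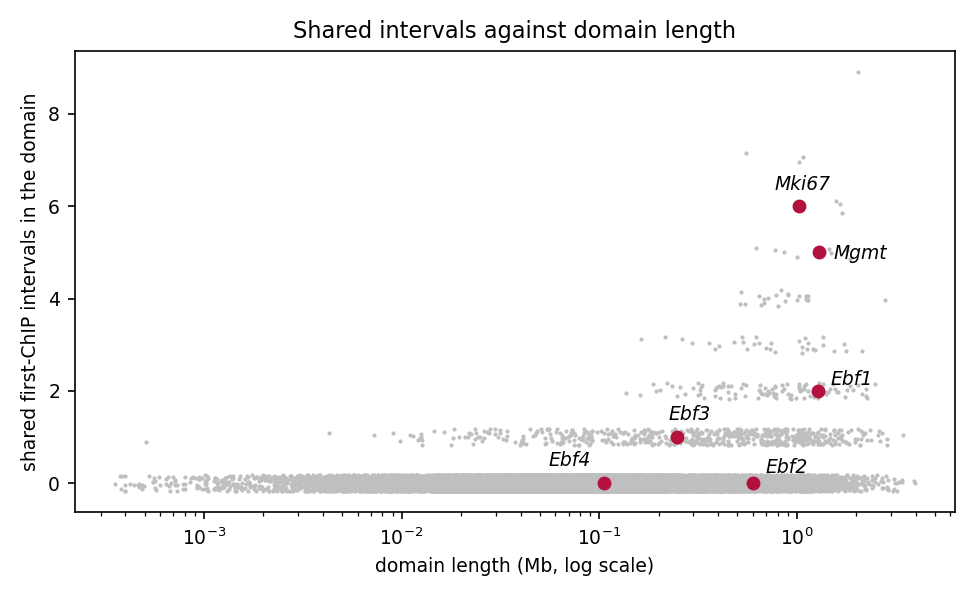
Number of shared first-ChIP intervals in a domain against domain length (Mb, log scale) for 21761 protein-coding genes, with a small vertical scatter added to the grey points. Mki67 lies at 6 and Mgmt at 5, all 5 of them counted for Mki67 too. Ebf1 lies at 2 and Ebf3 at 1, and Ebf2 and Ebf4 lie at 0 with most genes. The genes were picked with such counts known, so nothing is read from their height.

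In the 6 domains together, 9 of 13 first-ChIP intervals were shared (69.2%, exact 95% binomial interval 38.6 to 90.9) and 8 of 30 validation intervals (26.7%, 12.3 to 45.9). These binomial intervals cover counting error only. The first-ChIP intervals were weak for their list: 3 of 13 had at least its median score, which 55.3% of the list had. They were the strongest site of the gap, the second interval of the pair before Mgmt and the farther shared site of Ebf1, and all 3 were shared. Validation intervals stood near their list, with 18 of 30 at or above its median of 11, as had 57.6% of the list. The median validation score was 18.5 for the shared and 10.5 for the unshared in these domains, and 16 and 11 in the whole list. In the first ChIP it was 18 for the shared and 18.5 for the unshared in these domains, and 22 and 18 in the whole list.

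The 9 shared pairs differed in how closely they fitted each other. In all 9 pairs the validation interval was the wider, and in 7 the first-ChIP interval lay wholly inside it. Validation intervals were wider in the whole lists too, with a median width of 571 bp against 389 bp in the first ChIP. Neither count was made over all shared pairs, so nothing about these domains is read from the widths. Summits were 32 to 960 bp apart with a median of 107 bp, against 64 bp over all 709 pairs. They were within 100 bp in 4 of 9 pairs, against 73.8% of all pairs. The 4 were the strongest site of the gap and the Gm29872 site (64 bp each), the second interval of the pair before Mgmt (32 bp) and the Ebf3 site (96 bp). The 960 bp belonged to the first interval of that pair, whose validation partner had its summit at the second. When at least 50% of both intervals had to overlap, 3 of 13 first-ChIP intervals remained, at the farther Ebf1 site, Gm29872 and Ebf3, and 35.8% of the whole list did.

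**Figure D5:**
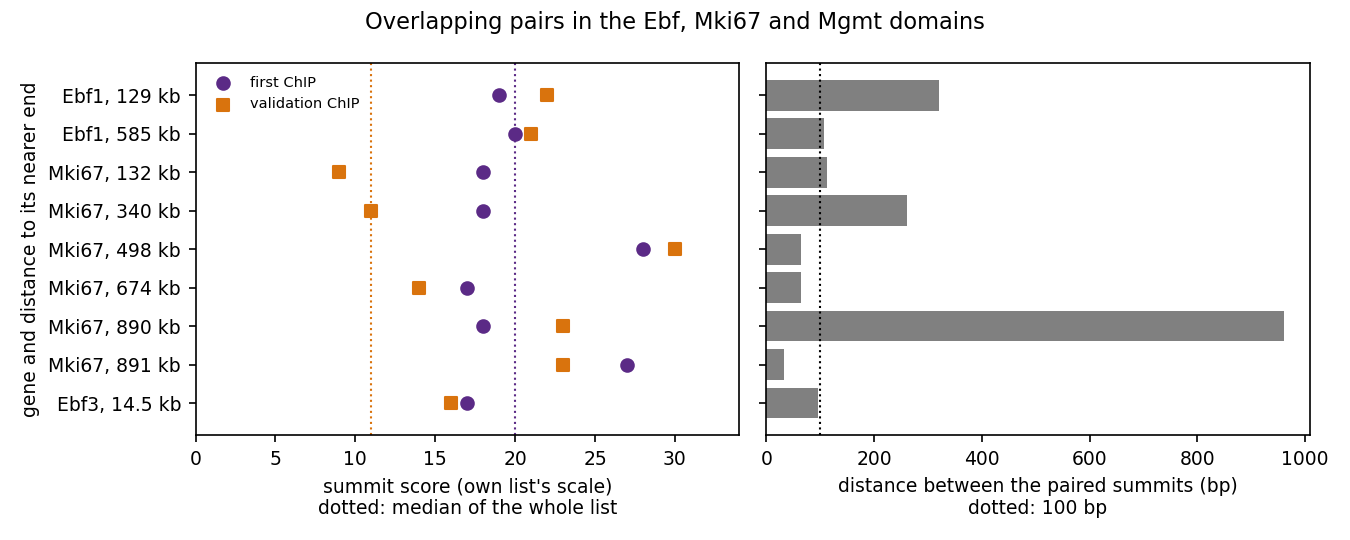
Left, summit scores of the 9 overlapping pairs in the first ChIP (circles) and the validation ChIP (squares), each on its own list's scale, with dotted lines at the medians of 20 and 11; right, distance between the paired summits in bp with a dotted line at 100 bp. Rows name a gene whose domain holds the pair and the distance to its nearer end; 4 of 9 pairs lie within 100 bp.

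Some intervals had a close neighbour in their own list. Of the validation intervals in the 6 domains, 10 of 30 had another of the same list within 10 kb (midpoint to midpoint), against 18.9% of the list, and of the first-ChIP intervals 5 of 13, against 8.94%. The 5 were the 3 at Ebf3 and the pair before Mgmt. In the first ChIP, 4 of 13 lay in protein-coding gene bodies, against 47.0% of the list. In the validation ChIP 8 of 30 did, against 43.3%. The gap between Mki67 and Mgmt, which has no protein-coding gene, held 6 of the 13 and 11 of the 30. Its intervals could not count here, so nothing is read from the lower shares.

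Genes with a pattern most like that of Ebf3 were sought by the counts of first-ChIP, validation and shared intervals (Euclidean distance over these 3 counts, among 2861 domains of like length). Spata18 had the same counts as Ebf3, 3, 5 and 1. Gsc and Dicer1, whose domains overlap on chromosome 12, and Disp1 and Uvrag each had 2, 5 and 1. For Ebf1, the nearest of 954 genes was Hand2, which encodes a basic helix-loop-helix factor of the posterior limb bud, with counts of 4, 10 and 2. Cd83 (4, 12 and 3) and Zfp521 (5, 12 and 2) followed, then Dok5 and Cxadr (3, 10 and 3 each).

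Among 24 genes tied to EBF function, 4 had a shared interval in their domain, where 3.41% of all protein-coding genes did; the median domain was 162 kb for the list and 67.3 kb for all genes. The share among genes with domains of like length was not counted, so nothing is read from this difference. Domain lengths also differed between the groups. Medians were 429 kb for cofactors and 318 kb for adipose and mesenchymal genes. For B-cell genes the median was 26.4 kb, and for neural and muscle genes 112 kb. Of 6 cofactor genes, 3 had a shared interval: Zfp521, which encodes a zinc finger protein that binds EBF1 and restrains it, had 2, and Tcf12 and Tcf3, which encode E-proteins, had 2 and 1. Zfp423, the related zinc finger gene, had 1 first-ChIP interval, which was not shared. Of 6 adipose and mesenchymal genes, Tle3, a co-repressor gene, had 3 shared intervals. Prdm16 had 1 first-ChIP and 2 validation intervals and Runx2 had 2 validation intervals, none of them shared, and Pparg, Cebpa and Cebpb had no interval of either list. None of 6 B-cell genes, among them Cd79a and Igll1, had a first-ChIP interval, and 2 had a validation interval; 6.04% and 15.1% of all protein-coding genes had one. The 6 neural and muscle genes had none of either list.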

How the data were processed

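The files hold interval (peak) lists and 1 summit score per interval, made by the authors from ChIP-seq reads. The submitters' processing notes name BWA and the build mm10. For the peak caller, its threshold and all versions, nothing is stated in the labels or file headers used here. The deposited score is a whole number without a stated unit or normalization. Lists were tied to samples by their track names. The validation file repeats the first-ChIP list, and the 13 first-ChIP intervals used here are identical in both copies. Coordinates are from 1.

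Genes (GRCm38.p6, the same coordinates; entries starting before 3 Mb left out) and promoter windows came from RefSeq. Counts were made with Python 3.11.15, pandas 2.3.3 and scipy 1.17.1, with functions tested on simulated intervals. A gene overlapping another was not extended on that side. Named were the 6 genes, bordering genes, those of 24 EBF-related genes that had a shared interval and, for Ebf3 and Ebf1, the 5 genes of like counts with a domain length within 1.5 times. Other genes named, and the EBF-related genes without shared intervals, were chosen after their values were seen. The genes and lists were chosen with earlier results of these data known. Motif searches were limited to promoter windows, as no genome sequence was used here; a planned protein comparison was not run. The 8 alternatives varied domain, placement, score and overlap.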

Additional observations from a re-analysis of the deposited data

How the results depend on the processing

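Of 36 values recomputed under 8 alternatives, 22 stayed within 1.5-fold of their count or within the binomial interval of their share. With gene bodies extended by at most 50 kb, which leaves out most of the gap between Mki67 and Mgmt, there were 4 first-ChIP and 10 validation intervals, 1 first-ChIP interval was shared (25%), and 10% of validation intervals were. With intervals at or above the median score of their list, 3 first-ChIP intervals (all 3 shared, 100%) and 18 validation intervals were left. When the overlap had to cover at least 50% of each interval, 3 first-ChIP intervals were shared (23.1%) and 10% of validation intervals. With summits within 100 bp, 4 were shared (30.8%). These settings keep fewer intervals or pairs by construction. Placing intervals by any overlap with the domain gave 14 first-ChIP intervals, the added one at the Ebf2 border. Leaving out predicted genes as borders lengthened the Ebf3 domain from 247 to 309 kb and changed no count. Depth is unknown, and a site missing from a list may lie under its calling limit.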

Other observations

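The validation file also lists 735 "Active Regions", each with the coordinates of a first-ChIP interval. All 9 shared first-ChIP intervals in the Ebf, Mki67 and Mgmt domains were among them, and the 4 unshared ones were not: those in the Ebf1 gene body and at 45523540 on chromosome 11, and those on either side of the Ebf3 start. In the whole first-ChIP list, 707 of 1287 intervals were shared. How many of these were Active Regions was not counted, so nothing about these domains is read from the split.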
